A study of Homo sapiens with 4 samples.

Results

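The genes described here are the 10 enzymes that modify collagen before and after it leaves the cell: the lysyl oxidases LOX, LOXL1, LOXL2, LOXL3 and LOXL4, the lysyl hydroxylases PLOD1, PLOD2 and PLOD3, and the catalytic subunits of prolyl 4-hydroxylase P4HA1 and P4HA2. They were taken by name, as a family chosen with earlier results of these data known, and are 10 of the 63241 genes in the table. All 10 were found once each and all 10 reached 1 CPM, the count of a gene scaled to a common library total, in some library, as did 16113 genes in all. The cells were of the human line LX-2, derived from hepatic stellate cells and immortalised, and their messenger RNA was sequenced in 4 conditions with 1 library each. Every culture was kept in 0.5% serum for 24 h. The control received no TGF-β, and the other cultures received TGF-β at 20 ng/mL for 24 h, alone, with BDS4 at 5 µM, or with RVX-208 at 5 µM. DMSO, the solvent, is named for the culture with TGF-β alone but not for the control. BET proteins read acetylated chromatin through a pair of bromodomains, and RVX-208, also called apabetalone, blocks mainly the second of them. Only the code name of BDS4 is known here, and the title of the study speaks of covalent inhibitors of the first. LX-2 is 1 cell line, so the data describe no donor-to-donor variation.

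Collagen chains are hydroxylated on proline in the endoplasmic reticulum by prolyl 4-hydroxylase, a complex of P4HA subunits with P4HB, and this lets the triple helix hold at body temperature. Lysyl hydroxylases add the hydroxyl groups that later carry sugars and the stronger kind of cross-link. Outside the cell, the copper enzymes of the lysyl oxidase family oxidise lysine and hydroxylysine, and the aldehydes that result join neighbouring molecules in fibres. In the scarred liver this cross-linking makes the matrix stiffer and harder to degrade.

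With 1 library per condition, no variation between cultures could be measured and no test across replicates exists. Calls therefore follow a rule of size: a ratio of scaled counts of at least 2-fold whose 95% counting interval excludes 1. Intervals stand in brackets and cover counting error only. Library totals ranged from 17022369 to 22503094 counts. Of the 8 stellate cell markers, LUM and DCN were below 1 CPM in all 4 libraries, and the list summed to 6440 CPM in the control, 10093 with TGF-β, 4616 with BDS4 and 8211 with RVX-208. With BDS4, 4 of its 6 measured genes were called lower than with TGF-β alone, beside 17.8% of all genes tested. Hepatocyte markers summed to 1.72 to 3.89 CPM, with TTR and CYP3A4 at 0 counts, endothelial markers to 6.16 to 11.8 CPM, with STAB2 at 0, and macrophage markers to 12.5 to 35.7 CPM, with PTPRC and CD163 below 1 CPM. Other members were detected. SERPINA1 reached 3.58 CPM with TGF-β and KDR 10.2 CPM with BDS4. CD68 and CD14 were highest in the control, at 27.9 and 6.57 CPM, and CSF1R with TGF-β, at 5.34 CPM. Cholangiocyte and epithelial markers summed to 57.7 CPM in the control, 105 with TGF-β, 24.4 with BDS4 and 51.9 with RVX-208, with EPCAM, KRT19 and CDH1 below 1 CPM. SOX9 and KRT7 made up most of these sums and were highest with TGF-β, at 91.1 and 13.5 CPM. The share of counts from mitochondrial ribosomal RNA was 0.903% with BDS4 and 0.212 to 0.248% in the others, and NEAT1, a nuclear RNA, stood at 968 CPM there and 60.6 to 127 CPM elsewhere. The part of these differences in the results below was not tested. In RNA from whole cultures, a change in RNA per cell and a change in the kinds of cells present cannot be told apart.

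Sequence upstream of LOX, PLOD2 and P4HA1 is shown because these 3 genes, one from each family, had 3 different patterns across the libraries. All 3 are known hypoxia-responsive genes, and ACGTG, the core of the element bound by hypoxia-inducible factor, is in capitals on either strand (as ACGTG or CACGT). The sequences are the RefSeq promoter windows (GRCh38.p14) cut to bases that lie in no exon annotated in GENCODE 29, written 5′ to 3′ on the strand of the gene. The LOX stretch lies at chr5:122078361-122078509, that of PLOD2 at chr3:146161185-146161434 and that of P4HA1 at chr10:73096975-73097116, all on the minus strand. In that annotation the genes span chr5:122063195-122078360, chr3:146069440-146163653 and chr10:73007217-73096974, so the PLOD2 stretch lies inside the annotated span of its gene, between exons.
LOX: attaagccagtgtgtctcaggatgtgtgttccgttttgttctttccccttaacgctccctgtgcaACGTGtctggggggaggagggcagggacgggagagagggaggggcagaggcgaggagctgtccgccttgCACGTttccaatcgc
PLOD2: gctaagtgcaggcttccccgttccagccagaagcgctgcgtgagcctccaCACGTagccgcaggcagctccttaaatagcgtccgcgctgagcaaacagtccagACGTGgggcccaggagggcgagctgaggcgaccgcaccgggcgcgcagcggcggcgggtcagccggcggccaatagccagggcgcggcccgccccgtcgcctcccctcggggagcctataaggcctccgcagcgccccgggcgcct
P4HA1: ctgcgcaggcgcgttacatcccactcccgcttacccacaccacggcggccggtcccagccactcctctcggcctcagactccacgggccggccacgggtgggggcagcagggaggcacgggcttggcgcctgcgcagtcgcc

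Over whole windows of 300 bases, RefSeq held a promoter for 9 of the 10 genes, all but LOXL2. ACGTG was present 4 times in the first of the 3 LOX windows, 2 times in the PLOD2 window and 1 time in the P4HA1 window, the last outside the bases printed. It was not found in those of LOXL1, LOXL3, LOXL4, PLOD1, PLOD3 or P4HA2. A run of CACGTG would count as 2 overlapping matches. Of all 35116 promoter windows of this length, 21.4% held the motif. A match describes letters only.

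Levels between genes were compared as scaled counts per kilobase of each gene's longest coding transcript. LOXL2, which encodes a lysyl oxidase with scavenger receptor domains, stood first in all 4 libraries, at 152 CPM per kilobase in the control, 141 with TGF-β, 80.3 with BDS4 and 121 with RVX-208. PLOD1 was second in the control at 60.7 CPM per kilobase, and P4HA2 was second with TGF-β at 69.8. With BDS4 the second place went to P4HA1 at 63.6 CPM per kilobase, and with RVX-208 to PLOD2 at 73.5. LOXL3 and LOXL4 held the last places in every library, between 0.430 and 6.65 CPM per kilobase. LOX, the founding member of the family, was eighth in all 4 libraries, from 5.99 CPM per kilobase with BDS4 to 18.8 with TGF-β. The order depends on the length used, and so does the first place of LOXL2 in the BDS4 library. With merged exon lengths from GENCODE 29, PLOD1 was second with TGF-β (35.5 CPM per kilobase) and with RVX-208 (38.1). By these lengths P4HA1 was first in the BDS4 library (58.5 CPM per kilobase, against 49.96 for LOXL2), and in the control it was above all but LOXL2 and PLOD1 (21.9).

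**Figure D1:**
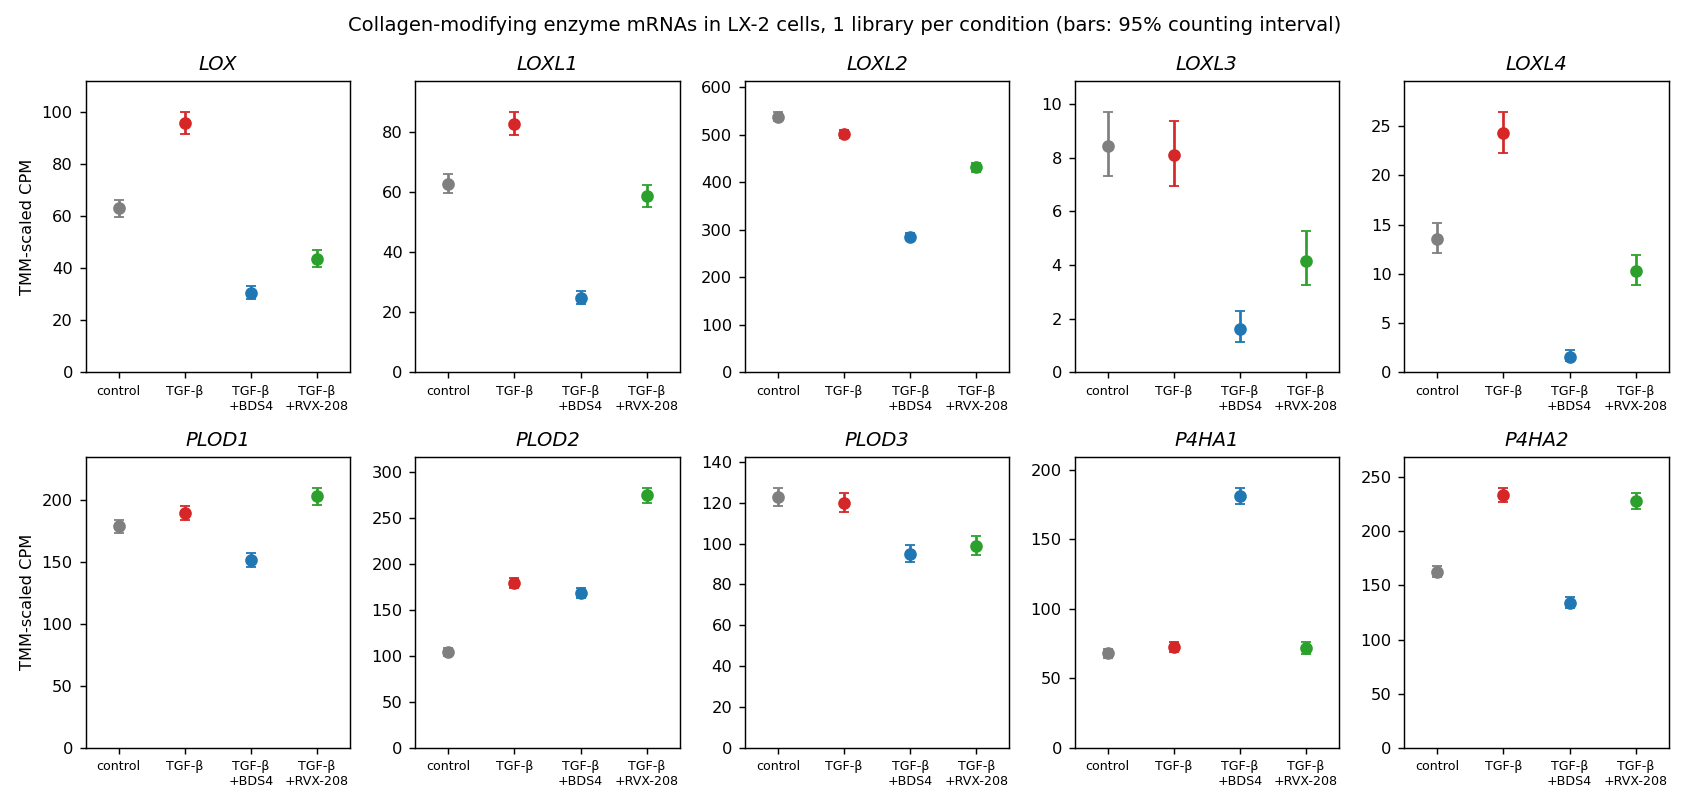
Scaled counts (TMM-scaled CPM, linear axes from 0) of the 10 genes in the 4 libraries, in the order control, TGF-β alone, BDS4 added and RVX-208 added; each point is 1 library and each bar a 95% counting interval. The 5 lysyl oxidases were lowest with BDS4, while P4HA1 was highest there at 181 CPM and PLOD2 was highest with RVX-208 at 274 CPM.

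TGF-β is the cytokine used here to activate the cells, and its effect on the enzymes was read against the control. None of the 10 genes met the 2-fold rule in either direction. Of all 16113 genes tested, 5.36% were called higher and 4.39% lower, or 9.75% in either direction. The intervals of 6 genes lay above 1 and that of 1, LOXL2, below 1. The median log2 ratio of the 10 genes was 0.24, against -0.01 for all genes tested.

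Among the lysyl oxidases, LOX stood at 62.9 CPM in the control and 95.7 with TGF-β, a ratio of 1.52 (1.42 to 1.63). LOXL1, an oxidase known for its part in elastic fibres, stood at 62.7 and 82.7 CPM, a ratio of 1.32 (1.23 to 1.41). The ratio nearest to the rule was that of LOXL4, which went from 13.6 to 24.3 CPM, a ratio of 1.79 (1.56 to 2.06). LOXL2 was at 538 and 501 CPM, with a ratio of 0.932 (0.909 to 0.956), and LOXL3 at 8.46 and 8.11 CPM, with an interval that included 1 (0.779 to 1.18). The family as a whole was thus at 685 CPM in the control and 712 with TGF-β, most of it LOXL2.

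Among the hydroxylases, PLOD2, which modifies lysines in the collagen telopeptides and is linked to the stronger cross-links of scar tissue, stood at 104 CPM in the control and 179 with TGF-β. The ratio was 1.72 (1.64 to 1.81). P4HA2 stood at 163 and 234 CPM, a ratio of 1.44 (1.38 to 1.497). PLOD1, which acts on lysines of the helix, was at 178 and 189 CPM (ratio 1.06, 1.01 to 1.11). PLOD3 also adds glucose to the galactose on hydroxylysine. The intervals of PLOD3 and P4HA1 included 1, at ratios of 0.977 (0.927 to 1.03) and 1.06 (0.992 to 1.14). Each family therefore held genes well above 1 beside genes close to it. Over the same libraries, 10 of 16 measured collagen chains were called higher and 1 lower, beside 5.36% and 4.39% of all genes. The median log2 ratio of the chains was 1.11. Type I collagen was among them, with COL1A1 at 2075 CPM in the control and 4705 CPM with TGF-β.

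**Figure D2:**
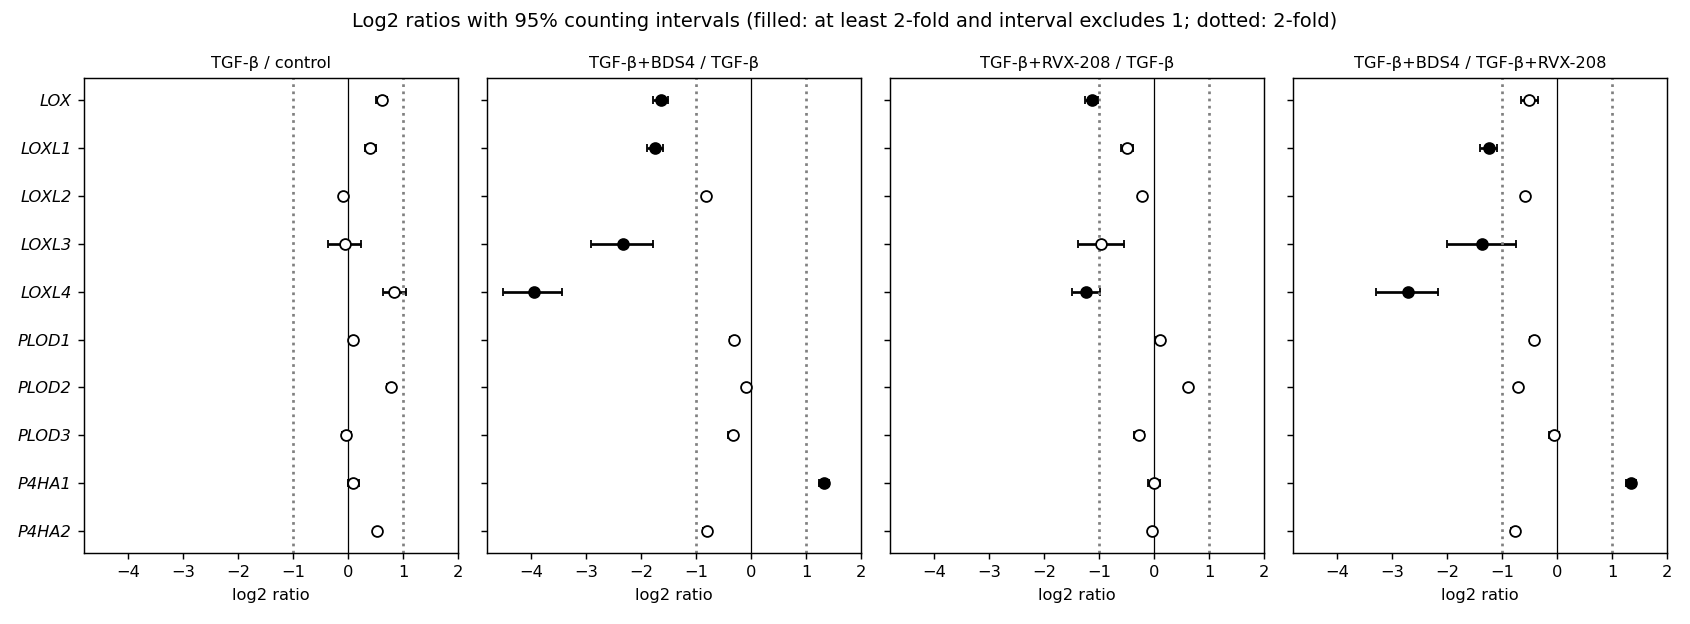
Log2 ratios (x axis) of the 10 genes (rows) in 4 comparisons, with 95% counting intervals; filled points met the 2-fold rule and dotted lines mark 2-fold. No point is filled for TGF-β over control, 5 are filled for BDS4 over TGF-β, 2 for RVX-208 over TGF-β and 4 for BDS4 over RVX-208.

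BDS4 was read against TGF-β alone, since both cultures received the cytokine. LOX, LOXL1, LOXL3 and LOXL4 fell and P4HA1 rose by the rule, while LOXL2, P4HA2 and the 3 PLOD genes stayed within 2-fold. Of all genes tested, 17.8% were called lower and 14.3% higher, or 32.2% in either direction, so calls were common in this comparison. The interval lay below 1 for 9 of the 10 genes. Their median log2 ratio was -0.81, against -0.02 for all genes.

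LOXL4 had 536 counts (24.3 CPM) with TGF-β and 32 counts (1.57 CPM) with BDS4, a level 15.5-fold lower (10.8 to 22.8) and also below the 13.6 CPM of the control. LOXL3 had 179 and 33 counts, or 8.11 and 1.62 CPM, and was 5.01-fold lower (3.44 to 7.501). Both genes are read from few counts with BDS4, and their intervals are the widest of the 10. LOXL3 shares 14.3% of its merged exon bases with HTRA2 and 4.95% with DOK1 on the opposite strand, and whether the counting used strand is not stated. HTRA2 alone had 770 counts with TGF-β and 812 with BDS4. When the counts of the 3 genes were summed, the log2 ratio was 0.064 and the call ended, as did the LOXL3 calls against RVX-208 and the control given below. HTRA2 outnumbered LOXL3 in every library, and the sum takes in all of its counts. The sum thus mostly follows HTRA2 and cannot decide whether LOXL3 fell.

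LOXL1 went from 82.7 to 24.7 CPM, 3.35-fold lower (3.03 to 3.70). Its antisense neighbour LOXL1-AS1, which shares 9.21% of its exon bases, had 478 counts with TGF-β and 78 with BDS4. LOX went from 95.7 to 30.5 CPM, 3.13-fold lower (2.86 to 3.43). LOXL2, the most abundant of the family, stood at 501 CPM with TGF-β and 285 with BDS4, which is 1.76-fold lower (1.70 to 1.82) and short of the rule. All 5 lysyl oxidases were lowest in the BDS4 library. Their summed level was 712 CPM with TGF-β and 344 with BDS4, 2.07-fold lower (2.02 to 2.13).

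P4HA1 rose from 72.1 CPM with TGF-β to 181 with BDS4, or 2.51-fold (2.36 to 2.66). The other 3 libraries lay between 67.8 and 72.1 CPM. P4HA2, the other catalytic subunit, stood at 234 CPM with TGF-β and 134 with BDS4, 1.74-fold lower (1.66 to 1.83) and short of the rule. The sum of both subunits was therefore nearly level, at 306 CPM with TGF-β and 315 with BDS4, a ratio of 1.03 (0.995 to 1.07). P4HB, the protein disulphide isomerase that completes the enzyme, stood at 464 and 830 CPM, under 2-fold (log2 ratio 0.84). P4HA1 had 13.4 counts per 100 P4HB counts in the control, 15.5 with TGF-β, 21.8 with BDS4 and 12.9 with RVX-208. PLOD1 was at 151 CPM (1.25-fold lower, 1.19 to 1.31), PLOD3 at 94.98 CPM (1.26-fold lower, 1.19 to 1.34) and PLOD2 at 168 CPM (1.06-fold lower, 1.02 to 1.11).

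The share of P4HA1 in the counts of the P4HA pair does not depend on scaling between libraries. It was 29.4% in the control (exact binomial interval 28.2 to 30.6%), 23.6% with TGF-β (22.6 to 24.6%), 57.4% with BDS4 (56.2 to 58.7%) and 23.9% with RVX-208 (22.7 to 25.1%). P4HA1 held the larger share of counts in the BDS4 library and the smaller one in the other 3. Per kilobase of the longest transcript these shares were 32.9, 26.7, 61.4 and 27.0%, and per kilobase of merged exons 53.4, 45.9, 78.8 and 46.4%. The length thus decides which subunit leads in the control. The BDS4 library had the highest P4HA1 share by counts, and a length fixed for each gene cannot change that order of the libraries.

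**Figure D3:**
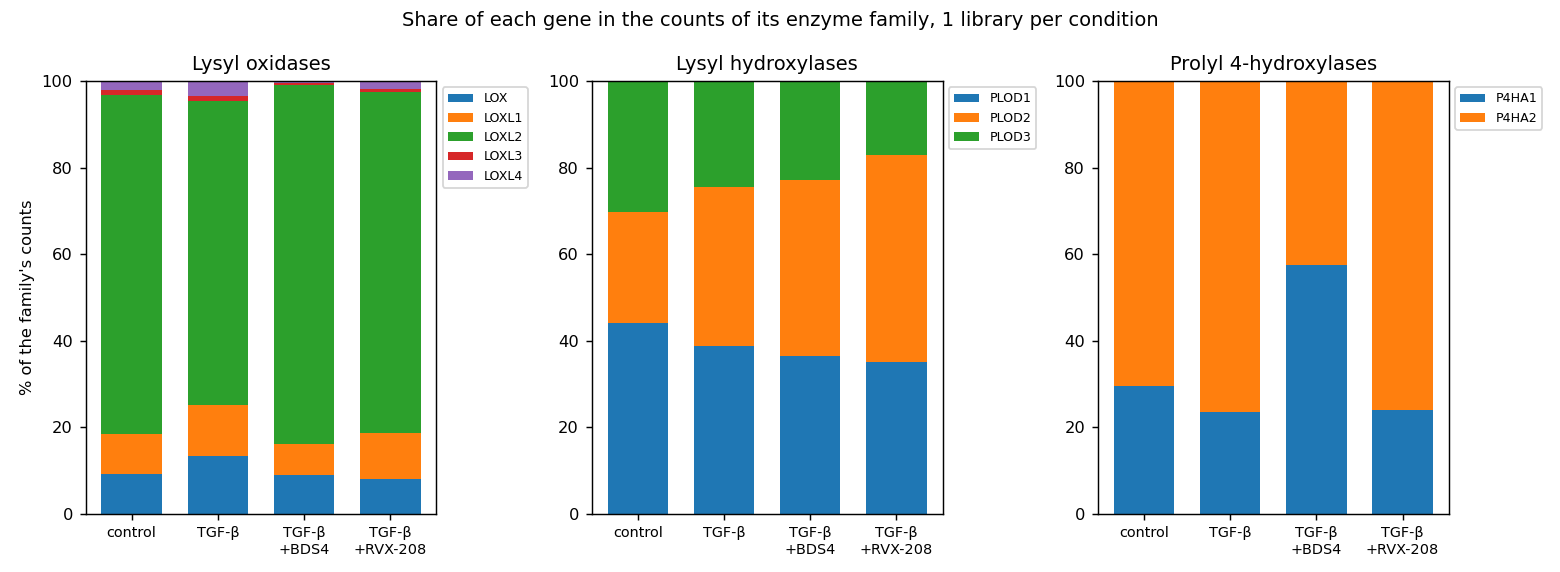
Percent of the counts of each enzyme family (y axis) that came from each gene, in the 4 libraries; counts are not divided by gene length. LOXL2 held 70.4 to 83.0% of lysyl oxidase counts, PLOD2 went from 25.6% in the control to 47.7% with RVX-208, and P4HA1 held 57.4% of its pair with BDS4.

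RVX-208 was set against the same TGF-β library. LOX and LOXL4 fell by the rule and none of the 10 genes rose. Of all genes tested, 5.31% were called lower and 2.91% higher, or 8.22% in either direction. The intervals of 6 genes lay below 1 and those of 2, PLOD1 and PLOD2, above 1. The median log2 ratio was -0.25, against -0.0025 for all genes.

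LOX went from 95.7 CPM with TGF-β to 43.5 with RVX-208, 2.20-fold lower (2.02 to 2.40) and below the 62.9 CPM of the control. LOX shares 2.49% of its exon bases with SRFBP1 on the opposite strand, and its call ended (1.84-fold lower) when the counts of both genes were summed. That sum takes in all counts of SRFBP1, not only those from the shared bases. LOXL4 went from 24.3 to 10.3 CPM, 2.36-fold lower (1.99 to 2.82). LOXL3 stood at 8.11 and 4.16 CPM, 1.95-fold lower (1.47 to 2.61), just short of the rule. The log2 ratio was 0.15 when HTRA2 and DOK1 were summed with it, a sum that mostly follows HTRA2. LOXL1 was at 58.7 CPM (1.41-fold lower, 1.30 to 1.52) and LOXL2 at 431 CPM (1.16-fold lower, 1.13 to 1.20).

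PLOD2 stood at 179 CPM with TGF-β and 274 with RVX-208, a ratio of 1.53 (1.47 to 1.60). Against the control it was 2.64-fold higher (2.52 to 2.78), the only one of the 10 genes called higher in that comparison, in which 5.33% of all genes were higher and 6.93% lower, or 12.3% in either direction. PLOD2 held 25.6% of the counts of the 3 PLOD genes in the control (24.8 to 26.5%), 36.7% with TGF-β (35.7 to 37.6%), 40.6% with BDS4 (39.5 to 41.6%) and 47.7% with RVX-208 (46.7 to 48.7%). This share was above the control in all 3 treated libraries. P4HA1 and P4HA2 had intervals that included 1 against TGF-β alone, at 71.6 and 228 CPM. PLOD3 stood at 98.9 CPM (1.21-fold lower, 1.14 to 1.29) and PLOD1 at 203 CPM (ratio 1.07, 1.02 to 1.121).

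BDS4 and RVX-208 were given at the same dose and time and were set against each other. Against TGF-β alone, 32.2% of all genes were called with BDS4 and 8.22% with RVX-208. Whether the same dose acted equally strongly on the targets of the compounds was not tested. LOXL1, LOXL3 and LOXL4 were lower and P4HA1 higher with BDS4 than with RVX-208, while 13.1% of all genes were lower and 11.6% higher, or 24.7% in either direction. LOXL4 was 6.55-fold lower (4.47 to 9.87), LOXL3 2.57-fold lower (1.68 to 4.01) and LOXL1 2.37-fold lower (2.13 to 2.65). P4HA1 was 2.52-fold higher (2.36 to 2.70). LOX differed less, at 30.5 CPM with BDS4 and 43.5 with RVX-208, a 1.42-fold difference (1.28 to 1.59). PLOD2 was 1.63-fold lower (1.56 to 1.71), P4HA2 1.70-fold lower (1.62 to 1.79), LOXL2 1.51-fold lower (1.46 to 1.56) and PLOD1 1.34-fold lower (1.28 to 1.41) with BDS4. The interval of PLOD3 included 1, at a ratio of 0.960 (0.899 to 1.03). With 1 library per compound these differences have no replicate check.

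Set against the control, BDS4 with TGF-β left LOX 2.06-fold lower (1.87 to 2.26), LOXL1 2.54-fold lower (2.29 to 2.81), LOXL3 5.23-fold lower (3.60 to 7.80) and LOXL4 8.65-fold lower (6.00 to 12.9). P4HA1 was 2.67-fold higher (2.52 to 2.83). These 5 calls stood beside 18.3% of all genes lower and 14.8% higher, or 33.1% in either direction. The split between higher and lower genes depends on the scaling here, with 2382 higher and 2953 lower as reported and 1877 and 3545 under total-count scaling. The LOX call ended (1.64-fold lower) when SRFBP1 was summed with it. PLOD2 stood at 168 against 104 CPM, a ratio of 1.62 (1.54 to 1.70). With RVX-208 only LOXL3 was called lower than the control, at 2.03-fold (1.54 to 2.71), and LOXL1 had an interval that included 1 (0.863 to 1.02). The comparisons with TGF-β alone share the TGF-β library and those with the control share the control, so their values are not independent.

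The lysyl oxidases need copper, and LOX is made as a proenzyme that the procollagen proteinase BMP1 cuts outside the cell. BMP1 stood at 89.7 CPM in the control and 168 with TGF-β. It fell to 36.1 CPM with BDS4, 4.65-fold lower than with TGF-β alone (4.29 to 5.04), and was at 127 CPM with RVX-208. In the list of 28 folding, hydroxylation and secretion partners that holds BMP1, 25 were measured and none met the rule with TGF-β. With BDS4, 7 of 25 were lower and 3 higher (median log2 ratio -0.07), beside 17.8% lower and 14.3% higher over all genes. SERPINH1, the collagen chaperone HSP47, was at 251 CPM in the control, 132 with TGF-β and 144 with RVX-208. It fell to 41.8 CPM with BDS4, 3.17-fold lower than with TGF-β alone (2.93 to 3.42). TMEM38B, an ion channel of the endoplasmic reticulum whose loss impairs collagen processing, rose from 22.4 to 73.7 CPM with BDS4. TLL2, a proteinase related to BMP1, had 5 counts in the control, 2 with TGF-β, 133 with BDS4 and 16 with RVX-208. Its ratios to TGF-β alone were 72.0 (19.5 to 601) and 10.5 (2.47 to 94.1), and it was the only member of the list called with RVX-208.

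In the list of elastic fibre and lysyl oxidase partners, 13 of 18 genes were measured and ELN, which encodes elastin, had at most 1 count. With TGF-β, 4 of 13 were higher (median log2 ratio 0.68), with BDS4 10 of 13 were lower (-1.23), and with RVX-208 2 of 13 were lower (-0.42). Over all genes tested, 5.36% were higher with TGF-β, 17.8% lower with BDS4 and 5.31% lower with RVX-208. Fibronectin (FN1), which binds LOX and BMP1, was at 2001 CPM in the control, 11140 with TGF-β, 2726 with BDS4 and 5299 with RVX-208. TGM2, a transglutaminase that joins matrix proteins by another chemistry, rose from 134 to 288 CPM with TGF-β and fell to 75.2 with BDS4, and was at 172 with RVX-208. POSTN, which encodes a partner of BMP1 on fibronectin, had 6 counts in the control, 69 with TGF-β, 0 with BDS4 and 2 with RVX-208. With the BDS4 library set to 3 counts, it was 21.2-fold lower with BDS4 than with TGF-β, a size that depends on this setting.

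Of 14 measured genes for copper, iron and vitamin C supply, none met the rule with TGF-β or RVX-208. With BDS4 5 were higher and 1 lower (median log2 ratio 0.68, against -0.02 for all genes), where 14.3% of all genes were higher and 17.8% lower. ATP7A, the pump that loads copper onto secreted enzymes, went from 32.2 to 88.3 CPM, 2.74-fold (2.52 to 3.00), in the library with the lowest lysyl oxidase levels. The transferrin receptor TFRC rose from 316 to 1048 CPM and FTL, the ferritin light chain, from 1200 to 3719 CPM. SLC11A2, an iron transporter, fell from 56.1 to 18.8 CPM. Among 9 other dioxygenases that share the iron and 2-oxoglutarate chemistry of the hydroxylases, 2 fell with BDS4, ASPHD2 (log2 ratio -1.15) and OGFOD3 (-1.12), and none met the rule with TGF-β or RVX-208. These 2 of 9 stand near the 17.8% of all genes that were lower with BDS4.

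Hypoxia-inducible genes other than the 10 enzymes were listed because LOX, PLOD2 and P4HA1 are known to respond to low oxygen. Of 26 measured, 2 were higher and 2 lower with TGF-β, 5 higher and 1 lower with BDS4, and none met the rule with RVX-208. Over all genes tested, 5.36% were higher and 4.39% lower with TGF-β, and 14.3% higher and 17.8% lower with BDS4, so the counts of higher genes lay near the shares over all genes. The medians were -0.02, 0.43 and 0.20 on the log2 scale. NDRG1, a stress-induced gene, was at 33.8 CPM in the control, 44.9 with TGF-β, 249 with BDS4 and 70.1 with RVX-208. ADM, a vasodilator peptide gene, was at 41.6, 6.34, 40.2 and 11.3 CPM in the same order. Both are among the 5 called higher with BDS4. BHLHE40, the 1 listed gene called lower with BDS4, was at 130, 786, 330 and 865 CPM in that order. ANGPTL4, called higher with TGF-β but not with BDS4, was at 1.13, 10.6, 11.8 and 18.1 CPM. The listed genes did not share 1 order of the libraries, and neither did LOX, PLOD2 and P4HA1.

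**Figure D4:**
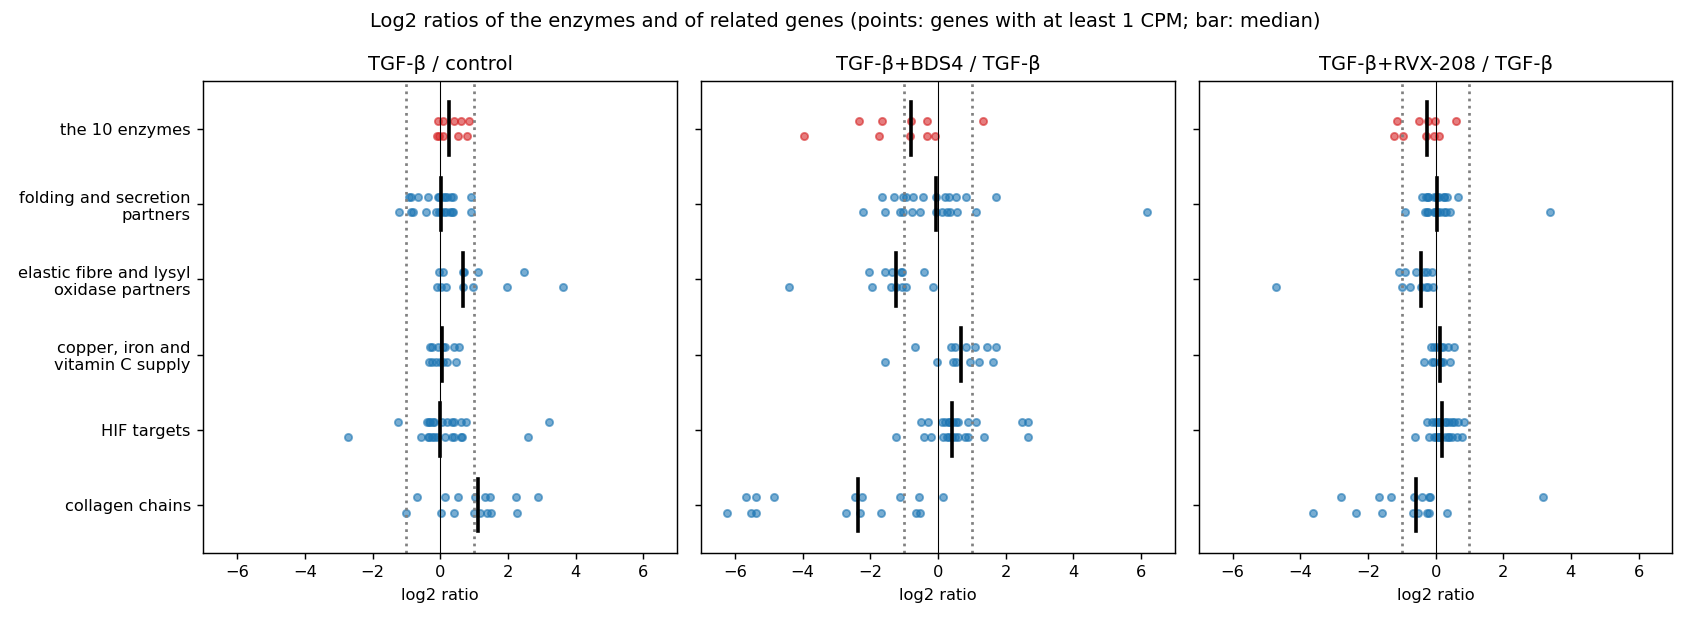
Log2 ratios (x axis) of the 10 enzymes and of 5 lists of related genes (rows) for TGF-β over control, BDS4 over TGF-β and RVX-208 over TGF-β; each point is a gene with at least 1 CPM, bars are medians, dotted lines mark 2-fold and POSTN with BDS4 is plotted at its bound. With BDS4 the median of the collagen chains lay farthest below 0, those of the elastic fibre partners and the 10 enzymes nearer to 0, and that of the genes of copper, iron and vitamin C supply above it.

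The enzymes and COL1A1, a collagen chain listed as a substrate, moved by different amounts. COL1A1 went from 4705 CPM with TGF-β to 103 with BDS4, 45.9-fold lower (43.9 to 47.9), and was at 2935 with RVX-208, 1.60-fold lower. Some other chains fell further with RVX-208. COL1A2, at 8.20 CPM with TGF-β, was 5.11-fold lower (3.40 to 7.97). COL3A1, at 7.38 CPM, was 12.4-fold lower (6.59 to 26.4). The more abundant COL6A3 also fell, from 250 to 78.5 CPM, while the scarce COL18A1 rose from 1.63 to 14.7 CPM. Of 16 measured chains, 6 were lower and 1 higher with RVX-208, beside 5.31% and 2.91% of all genes. Per 100 COL1A1 counts there were 25.9 LOXL2 counts in the control (25.4 to 26.4), 10.7 with TGF-β (10.4 to 10.9), 278 with BDS4 (264 to 292) and 14.7 with RVX-208 (14.3 to 15.0). LOX, which fell, still had 3.03, 2.03, 29.8 and 1.48 counts per 100 COL1A1 counts in the same order. P4HA1 had 3.27, 1.53, 176 and 2.44. The ratio to COL1A1 was thus lower with TGF-β than in the control and highest with BDS4 for all 5 enzymes examined in this way. COL1A1 itself was 2.27-fold higher with TGF-β than in the control, and it fell 45.9-fold with BDS4. A gene that changed much less than COL1A1 would show the same order, so the order says little about these enzymes. These ratios hold no gene length and do not depend on scaling between libraries.

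**Figure D5:**
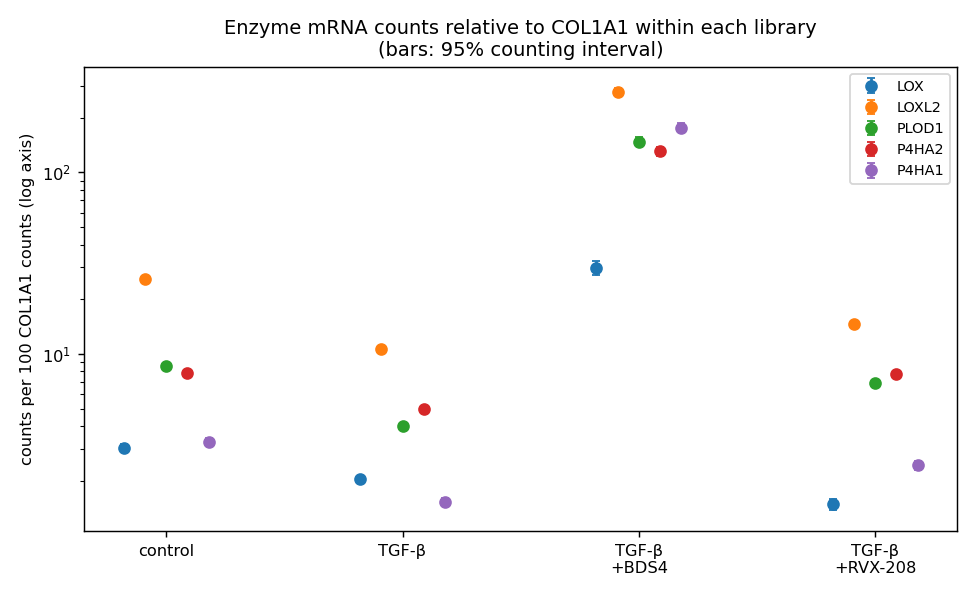
Counts of LOX, LOXL2, PLOD1, P4HA2 and P4HA1 per 100 COL1A1 counts (log axis) within each of the 4 libraries, with 95% counting intervals. All 5 lie highest in the BDS4 library, where COL1A1 itself was lowest, from 29.8 for LOX to 278 for LOXL2.

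Across the 4 libraries the 10 enzymes did not follow a single pattern. Likeness was measured as the Euclidean distance between log2 CPM values centred on each gene's mean over the 4 libraries. The nearest pair was PLOD1 and PLOD3 (0.37), and LOX was nearest to LOXL1 (0.57). P4HA1 and P4HA2 were 1.74 apart. Among 10900 genes with at least 10 CPM, LOX was closest to RNF217 (0.11), PANX2 (0.16) and SEMA4C (0.20), and LOXL1 to ZFP37 (0.03), PLEKHG5 (0.04) and PCDHGB2 (0.09), the last of a cluster of genes that share exons. LOXL3 was closest to FRMPD4 (0.07), DMTN (0.10) and RASL10B (0.12), and LOXL4 to PLPP4 (0.24), DHX58 (0.25) and KCTD15 (0.27). PLOD2 was close to SGK1 (0.10) and GCOM1 (0.14), and P4HA1 to FAM117A (0.05), EML6 (0.05) and ASAH1 (0.07). Such distances rest on 4 libraries.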

How the data were processed

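The authors deposited 1 table with raw whole-number counts and FPKM values for 63241 genes in 4 libraries. The submitters' processing notes name GRCh38, TopHat2 2.0.6 (an aligner) and CASAVA 1.8 (base calling). StringTie 1.3.0 for the deposited FPKM values and a stranded mRNA kit are per the labels' design text. For the counting program, annotation and strand setting, nothing is given in the sources used here. The BDS4 column carries a code, and its match rests on the sample's description.

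The deposited FPKM values equalled count over library total and a length that was, in the median gene, 2.53 times the longest coding transcript in GENCODE 29 (10379 genes) and equal to the summed length of all distinct exons. For PLOD2 it was 40586 bases, against 3732. Levels between genes therefore used counts per kilobase of GENCODE 29 transcripts, in place of the planned FPKM.

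Counts were scaled by TMM (edgeR 4.0.16, R 4.3.3; factors 0.943 to 1.06) over genes that reached 1 CPM in some library. Ratios have 95% conditional exact (Clopper-Pearson) intervals. Libraries with 0 counts enter a ratio at 3 counts, or 0.126 to 0.178 CPM. List medians used a prior count of 2. Other calculations used Python 3.11.15, numpy 2.4.6, scipy 1.17.1, pandas 2.3.3 and matplotlib 3.10.9. Alternatives were total-count, DESeq2 1.42.0 and upper-quartile scaling, other filters, a 1.5-fold rule and summing genes that share exon bases.

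Named genes are the 10 enzymes, up to 4 called members of each of 6 lists per comparison, 10 genes fixed by name, and the 3 nearest genes in pattern to each called enzyme, of which 1 is not reported here. Members, lists and rules were chosen with earlier results of these data known.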

Additional observations from a re-analysis of the deposited data

Results flagged for a closer look

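PLOD1 and PLOD2 are listed because the compounds stood on opposite sides of TGF-β alone, with counting intervals that excluded 1 under all 4 scalings. PLOD1 had a log2 ratio of -0.32 with BDS4 and 0.10 with RVX-208. PLOD2 had a log2 ratio of -0.090 with BDS4 and 0.62 with RVX-208. None of these met the 2-fold rule, both compounds were set against the same TGF-β library, and the difference was not tested across cultures.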

How the results depend on the processing

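No paired analysis was possible because each condition has 1 library, and for the same reason no library could be left out. Of 84 alternative counts of called enzymes, 77 stayed within 1.5 times the value in the report. With a 1.5-fold rule, 3 enzymes were higher with TGF-β than in the control, 1 was higher with RVX-208 than with TGF-β, 6 were lower with BDS4 than with RVX-208, and 2 were higher with BDS4 than in the control. With genes sharing exon bases summed, 1 enzyme was lower with RVX-208 than with TGF-β, 2 were lower with BDS4 than in the control, and 0 were lower with RVX-208 than in the control. In that setting LOXL3, summed with HTRA2 and DOK1, turned to log2 ratios of 0.064 (BDS4 against TGF-β), 0.18 (BDS4 against control) and 0.27 (RVX-208 against control), and LOX against the control with BDS4 was 1.64-fold lower. The LOXL3 sum mostly follows the more abundant HTRA2, so it cannot decide the LOXL3 calls. Total-count scaling lowered the median log2 ratio of all genes with BDS4 from -0.016 to -0.19 against the control and to -0.11 against TGF-β, and with RVX-208 against the control to -0.11. Under it LOXL2 became 2.12-fold lower with BDS4 than in the control, and P4HA1 with RVX-208 moved from a log2 ratio of 0.08 to -0.02 against the control. Of 144 list counts under other scalings, 4 moved by more than 1.5 times, all under total-count scaling and in comparisons of BDS4 with RVX-208 or the control. LOXL3 and LOXL4, with 33 and 32 counts in the BDS4 library, are limited by depth.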
